A study of Arabidopsis thaliana with 67 samples.

Results

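The comparison set 3 libraries of ago59 sperm nuclei against 3 libraries of ago9 sperm nuclei, 6 of the 67 samples of the series, chosen by genotype and cell type from the labels. The label ago59 was taken to mean loss of both AGO5 and AGO9, so both groups carry an ago9 mutation and differ in AGO5. All plants were Arabidopsis thaliana Col-0, and pollen came from plants 35 days after germination. Nuclear RNA was extracted in Trizol from nuclei labelled as sperm or vegetative, and Smart-seq2 libraries were made from 2 ng. Further groups are used to describe the changes: ago59 and ago9 vegetative nuclei (4 libraries each), wild-type sperm and vegetative nuclei (3 and 4) and ago5 sperm (3). The mutant alleles, and whether replicates came from separate plants or cultures, are not given in the sources used here, so p-values measure the spread between these libraries, which may be technical. The 7 wild-type columns carry the code 21 where other columns carry a genotype and were assigned to the wild type by elimination.

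ARGONAUTE proteins bind small RNAs and use them to find matching RNAs or chromatin, and in plants one branch of the family directs DNA methylation of transposable elements. A pollen grain holds a large vegetative cell, which grows the pollen tube, and a pair of sperm cells inside it. The sperm cells carry compact chromatin and fertilise the egg and the central cell. AGO9 is best known from the ovule, where it limits the number of cells that enter the germline, and AGO5 has been described in germ cells.

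The labels were checked first on the targeted genes. AGO5 (AT2G27880, chromosome 2) was at 2.88, 3.91 and 2.30 CPM (counts scaled to a common library total) in ago59 sperm and at 32.1, 41.7 and 39.1 CPM in ago9 sperm. The ago59 libraries lay far below all ago9 libraries, with means of 3.03 ± 0.814 and 37.6 ± 4.95 CPM (SD, n = 3 each). The log2 change was -3.86 ± 0.22 (SE; edgeR quasi-likelihood test, adjusted p = 2.59e-09). AGO9 (AT5G21150, chromosome 5) stood at 55.3, 53.8 and 31.1 CPM in ago59 sperm and at 28.5, 48.0 and 34.4 CPM in ago9 sperm, groups that overlapped (log2 0.10 ± 0.15, adjusted p = 0.767). In wild-type sperm AGO9 was at 703 to 767 CPM. Both targeted transcripts were thus low in ago59 and AGO9 alone was low in ago9.

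Total counts in the 6 libraries ran from 7267952 to 9489021. The marker genes of both cell types were measured in all 6: 12 sperm markers summed to 18263, 22375 and 26633 CPM in ago59 and to 30138, 21503 and 27708 CPM in ago9, which overlapped. The 18 vegetative markers summed to 9030, 8872 and 9184 CPM in ago59 and to 12644, 15070 and 13169 CPM in ago9, which did not overlap. Most of that sum came from VGD1, at 5848, 6183 and 6813 CPM in ago59 and at 9619, 10768 and 9968 CPM in ago9. Outside VGD1, CPM did not overlap for ANX2, BUPS1, CPK34 and MYB120 and overlapped for every other vegetative marker. The sperm sum came mostly from DAZ3 and PCR11. In vegetative nuclei the same 18 markers summed to between 40174 and 51462 CPM, so the sperm libraries also held vegetative transcripts. In bulk libraries fewer nuclei of a type and less RNA per nucleus cannot be told apart. The 4 anther and pollen coat markers summed to at most 1.04 CPM in each of the 6 libraries.

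**Figure D1:**
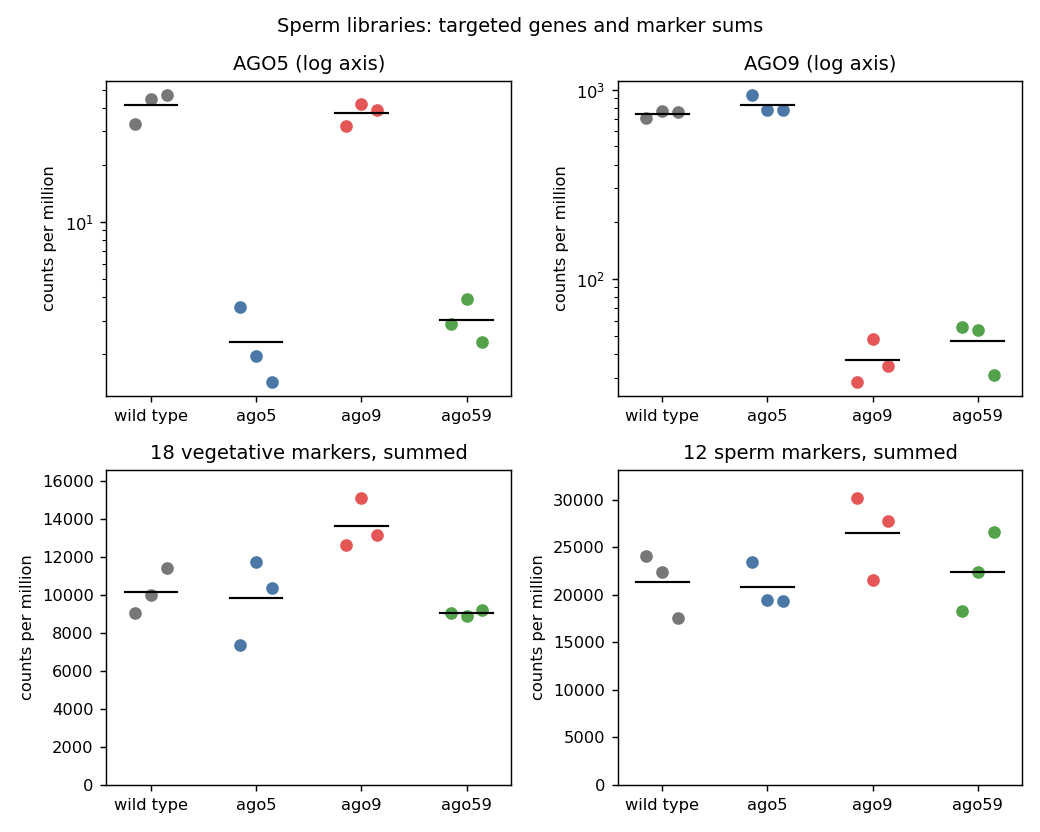
CPM of AGO5 and AGO9 (log axes) and summed CPM of the 18 vegetative and 12 sperm markers in the 12 sperm libraries; points are libraries and bars are group means. AGO5 was low in ago5 and ago59, AGO9 was low in ago9 and ago59, and the vegetative sum was highest in the 3 ago9 libraries. In ago59 and ago9 most of that sum came from VGD1.

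In ago59 against ago9 sperm, most of the transcripts called lower were ones enriched in the vegetative nucleus, although most vegetative-enriched transcripts did not pass the test. A smaller set, mostly sperm-enriched, was higher. Of 9623 features tested (genes and transposable element rows), 613 were called at an adjusted p under 0.05, or 6.37%. Of these, 134 were higher in ago59 (1.39% of those tested) and 479 were lower (4.98%). Most changes were small: the median log2 change was 0.63 among the higher calls and -0.71 among the lower ones, and 22 and 54 went beyond 1 on the log2 scale. CPM did not overlap between the groups for 82 of the 134 and 253 of the 479, against 10.7% of all tested features in the higher direction and 4.15% in the lower.

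These calls rest on how libraries are scaled and on which are kept. With library totals alone and no scaling factor, 29 features were called, and the median of all features moved to 0.26. Of the 613 calls, 174 (126 higher, 48 lower) lay outside the features that are vegetative-enriched in the wild type. Scaled and fitted without those features, 50 of 6737 were called, 15 higher and 35 lower. With factors from sperm-enriched features, 45 were higher and 605 lower. Leaving out ago59 replicate 1 left 24 higher and 79 lower, and leaving out ago59 replicate 2 left 31 and 166. Without ago9 replicate 1 they were 45 and 314, without ago9 replicate 2 they were 68 and 234, and without ago9 replicate 3 they were 40 and 289. Without ago59 replicate 3 there were 271 higher and 514 lower calls. CPM values in the text use library totals, whereas log2 changes use TMM factors, which ran from 0.76 to 1.25 in these 6 libraries, so ratios of the printed CPM differ from the log2 changes.

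**Figure D2:**
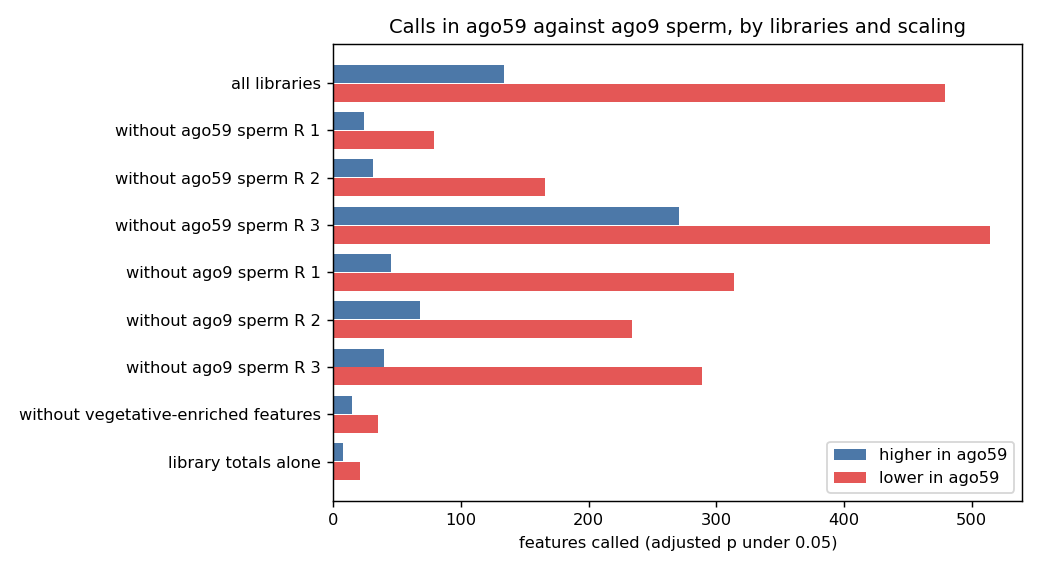
Number of features called higher (blue) or lower (red) in ago59 sperm against ago9 sperm, with all 6 libraries, with each left out in turn, without vegetative-enriched features and with library totals alone. Lower calls outnumbered higher calls in every bar pair, from 21 against 8 with library totals alone to 514 against 271 without ago59 replicate 3. With all libraries they were 479 against 134. The pair without vegetative-enriched features compares with 48 lower and 126 higher calls outside that class in the full fit (174 of 6688 features).

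To ask which changes follow sperm or vegetative expression, each feature was placed by wild-type sperm against wild-type vegetative nuclei, libraries outside the contrast itself. The wild-type sperm libraries did enter the sperm fit, where they bear on the filter, the scaling and the estimate of spread. In that reference 91.1% of 10125 features were called, 45% higher in sperm and 46.1% lower. Features called with a log2 difference above 1 were termed sperm-enriched, and below -1 vegetative-enriched. Of the 479 lower calls, 431 (90%) were vegetative-enriched, a class that held 30.5% of the features tested. Within that class 14.7% of 2935 features were called lower, 8 features were called higher and 2496 were not called. Of the 134 higher calls, 97 (72.4%) were sperm-enriched, a class that held 44.6% of them. The median log2 change was -0.35 over all 2935 vegetative-enriched features and 0.12 over all 4296 sperm-enriched features, against 0.02 over all tested. With library totals alone those medians were -0.11, 0.37 and 0.26, since a change of factors moves every feature by about the same amount.

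The share of lower calls was not the same along the reference. It was 2.73% of features with a wild-type log2 below -4, 9.76% from -4 to -3, 19.7% from -3 to -2 and 16.6% from -2 to -1. It was 3.49% from -1 to 0 and at most 0.502% in every bin above 0. The features most enriched in vegetative nuclei were called lower in a smaller share than those with moderate enrichment, a description with no test. Higher calls made up 0.273% of the lowest bin and 3.31% of the highest.

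**Figure D3:**
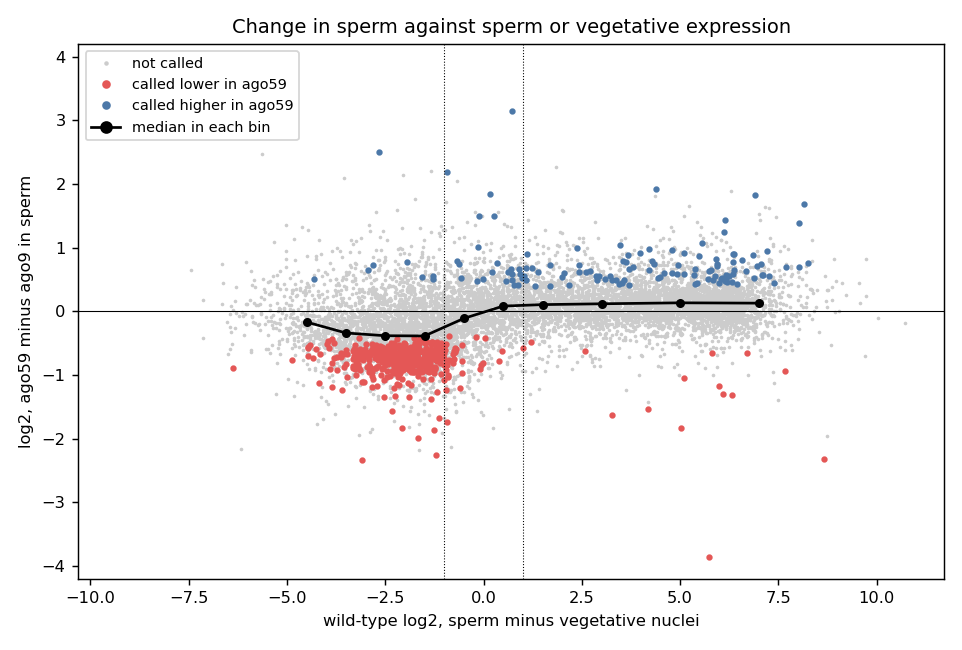
Log2 change of each feature in ago59 against ago9 sperm (vertical) by its wild-type log2 difference, sperm minus vegetative nuclei (horizontal); red and blue points were called, black points join the median of each bin, and dotted lines mark the class limits of -1 and 1. Red points gather left of -1, where bin medians lie between -0.39 and -0.17, and bin medians right of 0 lie between 0.08 and 0.13.

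The vegetative-enriched share of all counts was 14.4 ± 1.01% in ago59 sperm (SD, n = 3; range 13.5 to 15.5) and 19.8 ± 2.26% in ago9 sperm (18.2 to 22.4). Those ranges did not overlap. Wild-type sperm stood at 16.1 ± 3.22% (13.1 to 19.5) and ago5 sperm at 15.7 ± 1.95% (13.4 to 17.0), so 1 wild-type library lay within the ago9 range. Set against the wild type, with ago9 and ago59 sharing those controls, all 2935 vegetative-enriched features had a median log2 of 0.35 in ago9 and -0.02 in ago59. Over all features tested these medians were 0.02 and 0.00. The part of this vegetative share in the lower calls was not tested. The fit without vegetative-enriched features cannot test it, since 431 of the 479 lower calls were left out of that fit.

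Among the lists of known genes, 10 of 17 tested vegetative markers fell, none rose and 7 did not pass, with a median log2 of -0.60 against 0.02 over all features. Lower calls made up 4.98% of all features and 14.7% of the vegetative-enriched class. Without ago59 replicate 1, ago59 replicate 2 or ago9 replicate 2, 4, 5 and 6 of the 17 passed, and 1 of 17 passed with library totals alone. CPK34, a calcium-dependent kinase of pollen tube growth, was at 13.8, 13.4 and 11.3 CPM in ago59 and at 18.4, 32.7 and 24.9 CPM in ago9 (log2 -1.19 ± 0.16, adjusted p = 0.0006). Its relative CPK17 fell by 0.82 on the log2 scale (adjusted p = 0.00316), although its highest ago59 library (282 CPM) exceeded its lowest ago9 library (252 CPM). ANX2 and BUPS1 (AT4G39110) encode receptor kinases that keep the growing tube intact. ANX2 was at 106, 117 and 82.0 CPM in ago59 and at 137, 217 and 145 CPM in ago9 (log2 -0.92, adjusted p = 0.00234). BUPS1 was at 243, 265 and 199 CPM in ago59 and at 390, 460 and 321 CPM in ago9 (log2 -0.95, adjusted p = 0.00316). For both genes every ago59 library lay below every ago9 library. None of 11 tested sperm markers passed, and their median log2 was -0.14. The 2 most abundant of them, DAZ3 and PCR11, had log2 changes of -0.42 (adjusted p = 0.507) and -0.63 (adjusted p = 0.34).

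The other lists gave few calls. Of 4 tested ARGONAUTE genes, AGO5 alone passed. None of 8 small RNA and RNA-directed DNA methylation genes, 10 DNA methylation genes, 5 stress genes or 4 leaf genes passed. The 4 tested leaf genes had log2 changes from 0.21 to 1.94, with a median of 0.90. Of these, RBCS1A, LHCB1.3 and RBCS2B averaged at most 2.90 CPM in either group. The abundant one, RBCS3B, had the change of 0.21 and was sperm-enriched (wild-type log2 6.27). Its means were 331 CPM in ago59, 237 in ago9, 347 in wild-type and 359 in ago5 sperm. The 9 leaf markers summed to 362, 361 and 287 CPM in ago59 and to 278, 197 and 244 CPM in ago9, which did not overlap and came mostly from RBCS3B. Counts on chloroplast, mitochondrial and ribosomal RNA genes made up 2.39% to 3.98% of each ago59 library and 1.91% to 2.22% of each ago9 library. These values were higher in the group with the lower vegetative share. Within ago9 both ran in reverse order of the vegetative-enriched share, which was 18.2, 22.4 and 18.8% in replicates 1, 2 and 3. Their organelle and ribosomal RNA shares were 2.22, 1.91 and 2.05%. Within ago59 neither measure ran in that reverse order. Replicate 3 of ago59 had the lowest vegetative-enriched share of its group (13.5%) and also its lowest leaf sum and organelle and ribosomal RNA share. The part of the leaf, organelle and ribosomal RNA counts in the calls was not tested. MET1, the maintenance DNA methyltransferase, was at 1072, 1045 and 678 CPM in ago59 and at 570, 797 and 571 CPM in ago9, overlapping groups (log2 0.29, adjusted p = 0.278). The heat shock gene HSP70 (AT3G12580) was at 169, 152 and 135 CPM against 89.6, 116 and 91.1 CPM, and its adjusted p was 0.0516.

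Most leading lower genes shared one pattern across the sperm groups: a mean that was highest in ago9 and nearer to each other in ago59, ago5 and the wild type. ATCHX5, of the cation/proton exchanger family, was at 94.0, 92.1 and 85.6 CPM in ago59 and at 130, 210 and 145 CPM in ago9 (log2 -1.03 ± 0.13, adjusted p = 0.000471). Its wild-type and ago5 sperm means were 101 and 94.5 CPM, so ago9 was the group apart. GAE2, an epimerase that supplies precursors of pectin, was at 284, 254 and 243 CPM in ago59 and at 416, 532 and 419 CPM in ago9 (log2 -1.02 ± 0.13, adjusted p = 0.000471). The wild type averaged 300.0 CPM and ago5 277 CPM. BAM1 (AT3G23920), a beta-amylase, changed by -0.95 and the receptor kinase PERK6 by -0.89 on the log2 scale (adjusted p = 0.00126 each). AT2G42005 and AT1G01310 changed by -0.97 and -1.07, and AT1G04540 was at 142 to 163 CPM in ago59 and 243 to 288 CPM in ago9. All of these were vegetative-enriched, with wild-type log2 differences between -3.46 and -1.77.

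ACS6, an enzyme of ethylene synthesis, did not follow its class. It was sperm-enriched, at 6.09 on the log2 scale in the wild type, and yet was at 13.8, 13.1 and 11.9 CPM in ago59 against 28.8, 28.1 and 23.3 CPM in ago9 (log2 -1.29 ± 0.16, adjusted p = 0.000471). Means were 64.6 ± 9.47 CPM in wild-type sperm and 47.5 ± 6.88 CPM in ago5 sperm (SD, n = 3 each). No ago59 library overlapped any library of the other sperm groups. ACS6 was 1 of 15 sperm-enriched features called lower, with AGO5. Another, chosen after its values were seen, was AT1G34095, at 101, 255 and 288 CPM in ago59 and at 1289, 1006 and 573 CPM in ago9 (adjusted p = 0.0322). Its wild-type mean of 524 ± 351 CPM shows wide spread within a group.

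Promoters of ATCHX5 and GAE2, which moved together, and of ACS6, which stood against its class, are printed from 250 bases before to 50 bases after the RefSeq gene start (TAIR10.1, gene strand). They are chr1:2559179-2559478 (minus strand), chr1:345266-345565 (plus) and chr4:6863729-6864028 (plus). Capitals mark AGAAA on either strand, an element first described in the tomato pollen gene LAT52.
ATCHX5: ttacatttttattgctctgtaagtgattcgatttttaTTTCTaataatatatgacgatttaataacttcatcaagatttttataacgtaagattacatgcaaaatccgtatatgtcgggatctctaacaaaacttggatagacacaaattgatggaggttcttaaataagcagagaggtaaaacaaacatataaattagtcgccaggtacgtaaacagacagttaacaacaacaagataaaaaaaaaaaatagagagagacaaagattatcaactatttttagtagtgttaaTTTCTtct
GAE2: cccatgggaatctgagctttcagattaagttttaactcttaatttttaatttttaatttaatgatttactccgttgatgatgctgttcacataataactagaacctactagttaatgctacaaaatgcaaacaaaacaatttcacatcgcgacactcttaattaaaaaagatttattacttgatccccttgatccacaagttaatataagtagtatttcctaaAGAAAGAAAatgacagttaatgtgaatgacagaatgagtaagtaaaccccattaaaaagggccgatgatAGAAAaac
ACS6: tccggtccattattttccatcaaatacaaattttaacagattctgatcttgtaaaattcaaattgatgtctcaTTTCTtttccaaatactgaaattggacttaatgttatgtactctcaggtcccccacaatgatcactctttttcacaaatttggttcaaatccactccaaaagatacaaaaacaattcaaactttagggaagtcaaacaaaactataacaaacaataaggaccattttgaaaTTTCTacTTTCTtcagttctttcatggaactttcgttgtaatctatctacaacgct
AGAAA occurred 2, 3 and 3 times in them. In GAE2, 2 matches overlap. The same stretch of GLU2, a gene called higher and not printed here, held 0. AGAAA was present in 91.3% of 426 promoters of vegetative-enriched genes called lower, 90.7% of 2801 promoters of all vegetative-enriched genes and 88.3% of 9205 promoters of tested genes. It was present in 87.5% of 88 promoters of sperm-enriched genes called higher and 87.2% of 4181 promoters of all sperm-enriched genes. AACCG, also searched on both strands, had 0 matches in these promoters and was present in 32.6% of all 9205.

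Of the 10 leading higher genes, 8 changed by less than 1 on the log2 scale. GLU2, a ferredoxin-dependent glutamate synthase, was at 13.3, 12.0 and 6.30 CPM in ago59 and at 1.58, 3.12 and 2.34 CPM in ago9 (log2 1.92 ± 0.28, adjusted p = 0.00141). Wild-type and ago5 sperm averaged 7.52 and 7.45 CPM, so ago9 was again the group apart. LIG6, a DNA ligase, was at 224, 210 and 131 CPM in ago59 and at 95.0, 126 and 101 CPM in ago9 (log2 0.56, adjusted p = 0.00637). ASN1, an asparagine synthetase, was at 118, 114 and 91.3 CPM against 54.0, 77.3 and 57.4 CPM (log2 0.56, adjusted p = 0.00637). In GLU2, LIG6 and ASN1, ago59 replicate 3 was the lowest of its group. EXPA7, an expansin, rose by 0.75 on the log2 scale, and AT5G17360, AT5G25560 and AT3G44770 by 0.65, 0.61 and 0.67. EXPA7, ASN1, AT5G17360, AT5G25560 and AT5G63370 overlap other annotated genes, and reads were not separated here. The same holds for CPK34 and AT1G01310 among the lower genes. AT5G63370 was vegetative-enriched and yet higher (log2 0.66), 1 of 8 such features. DFD, of folate metabolism, rose by 0.80 and AT3G05755, a feature at or under 3 CPM that overlaps AT3G05760, by 3.15.

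**Figure D4:**
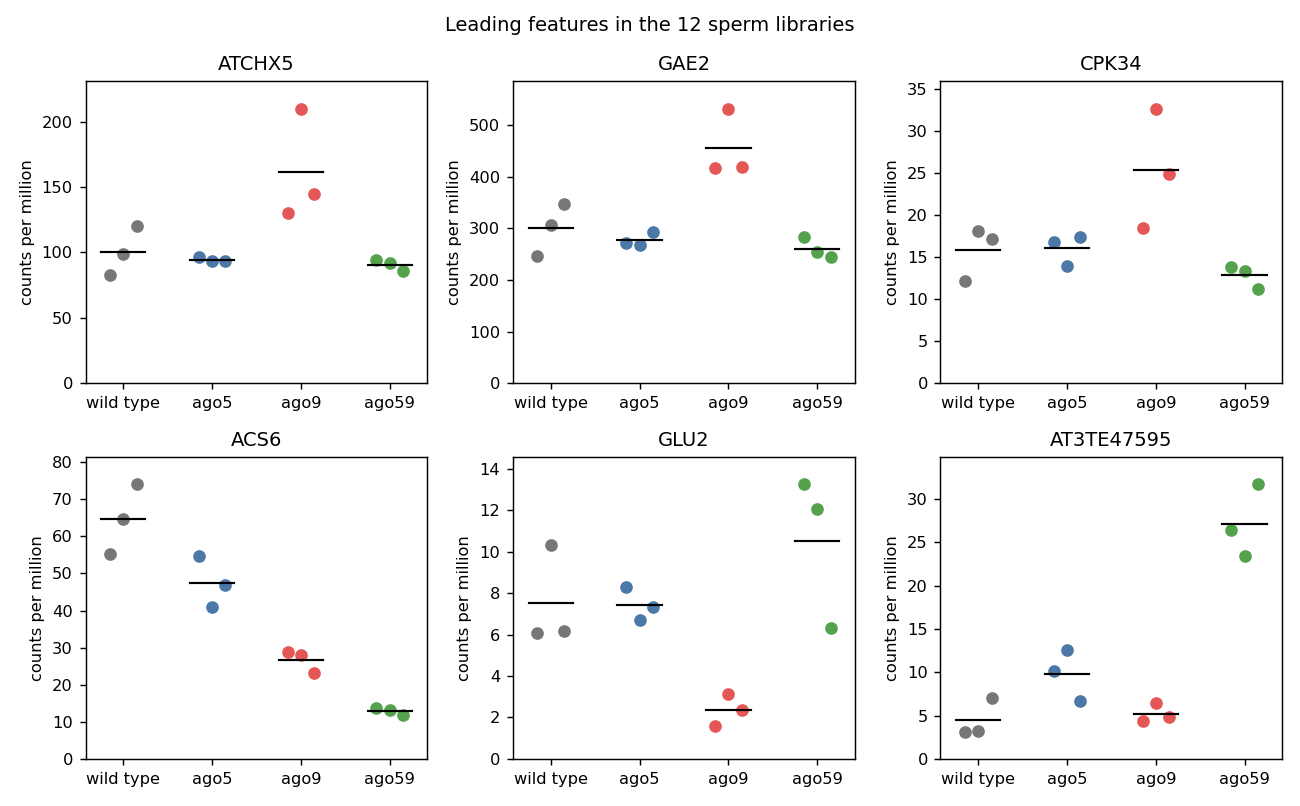
CPM of 6 leading features in the 12 sperm libraries; points are libraries and bars are group means. ATCHX5, GAE2 and CPK34 were highest in ago9, GLU2 was lowest in ago9, ACS6 was lowest in ago59, and AT3TE47595 was highest in ago59, at 23.5 to 31.7 CPM.

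Transposable element rows were tested beside genes: of 353, 8 rose (2.27%) and 9 fell (2.55%), against 1.39% and 4.98% of all features. Their share of all counts was 15.2 ± 1.99% in ago59 and 15.1 ± 0.747% in ago9 (SD, n = 3 each; exact two-sided permutation test, p = 0.9, with 0.1 the smallest p that 3 against 3 allows). Nearly all of that share lay in the 5 most abundant rows: 12.9, 13.8 and 16.9% of counts in ago59 and 14.7, 13.8 and 15.3% in ago9. The test therefore speaks mainly to those rows. The small remainder was slightly higher in every ago59 library than in every ago9 library. AT3TE47595 was at 26.4, 23.5 and 31.7 CPM in ago59 and at 4.43, 6.47 and 4.82 CPM in ago9 (log2 2.20 ± 0.29, adjusted p = 0.0006). It averaged 4.44 ± 2.24 CPM in the wild type and 9.77 ± 2.98 CPM in ago5, so ago59 was the group apart. AT2TE00075 was at 16.9, 23.7 and 16.4 CPM in ago59 and at 5.16, 5.27 and 4.54 CPM in ago9 (log2 1.69, adjusted p = 0.0013). It averaged 4.12 CPM in the wild type and 5.06 CPM in ago5. AT5TE31885 rose by 0.58 on the log2 scale. AT4TE15590, chosen after its values were seen, was at 43.2, 38.1 and 41.3 CPM in ago59 and at 20.7, 20.1 and 21.7 CPM in ago9 (adjusted p = 0.023), with means of 18.6 CPM in the wild type and 32.2 CPM in ago5. AT1TE64390, AT3TE69070 and AT2TE17875 fell by 1.17, 1.83 and 1.05 on the log2 scale. Rows at such levels can share reads among copies, and how the authors assigned them is not given in the sources used here.

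The same genotype contrast was then read in vegetative nuclei, in other libraries. There 2 of 8973 features were called (0.0223%), both transposable element rows, and 1100 had an unadjusted p under 0.05; DESeq2 called 65. AT5TE46580 was higher in ago59 (log2 1.31) and AT3TE58655 lower (log2 -3.03), each with an adjusted p of 0.00937. Of the 431 vegetative-enriched features called lower in sperm, 391 also had a log2 below 0 in vegetative nuclei, with a median of -0.25. Among all 2935 vegetative-enriched features 1392 did, with a median of 0.01. Of the 97 sperm-enriched features called higher in sperm, 59 were tested there. Of those, 28 had a log2 above 0 and 31 below, with a median of -0.03. Among all sperm-enriched features tested there, 1332 of 2204 had a log2 below 0, with a median of -0.08. Tested directly, the sperm and vegetative contrasts differed for 3 of 11250 features (0.0267%; 1541 with an unadjusted p under 0.05), and for 211 with DESeq2. Calls in sperm that are absent in vegetative nuclei are therefore not shown to be particular to sperm.

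A second contrast takes AGO5 away while AGO9 is present, ago5 against the wild type in sperm, and shares no library with ago59 against ago9. Of the 431 vegetative-enriched lower calls, 310 had a log2 below 0 there, with a median of -0.07, against 1449 of 2935 and a median near 0.00 for the whole class. Of the 97 sperm-enriched higher calls, 35 had a log2 below 0 there, with a median of 0.07. Among all 4296 sperm-enriched features 2191 did, with a median of -0.005. Both classes were set with these wild-type libraries. A direct test of the difference between both contrasts called 1 of 9623 features (0.0104%; 1233 with an unadjusted p under 0.05), the row AT5TE29800, and DESeq2 called 166.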

How the data were processed

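The deposited table holds estimated counts per gene or transposable element row, not normalized by the authors, as the values show; TAIR10 and DESeq2 are named per the submitters' processing notes, and the aligner and counter are not given in the sources used here. Of its pollen columns 27 were used, 20 matched to samples by name and 7 by elimination; 40 seedling columns were not used. Expected counts were rounded to whole numbers. Features passing filterByExpr (minimum count 10, total 15) were scaled by TMM and tested with edgeR 4.0.16 (quasi-likelihood, group means, R 4.3.3), with Benjamini-Hochberg adjustment over all features and a threshold of 0.05. SE is the log2 change over the square root of F. All 12 sperm libraries entered the sperm fit. The sperm fit alone was tested on simulated data with 200 changed features. Of 97 tested features changed by 0.75 on the log2 scale, 26.8% were called in the right direction. Of 97 changed by 1.5, 64.9% were, and 3 unchanged features were called. A feature that did not pass may therefore still have changed. Alternatives were DESeq2 1.42.0, RLE factors, filters, left-out libraries and scalings. Named genes were the 10 genes and 3 transposable element rows per direction with the smallest adjusted p and no overlap in CPM, the leading called members of each list, and features called in the other tests. Members and lists were chosen with earlier results of these data known. Same-numbered ago59 and ago9 sperm libraries correlated at -0.114, 0.0485 and 0.041. These values show no pairing by number but cannot exclude one. Same-numbered sperm and vegetative libraries correlated at 0.101, -0.0194 and 0.179 in ago59. In ago9 they correlated at 0.0266, 0.0724 and -0.0272. A pairing of sperm with vegetative libraries is thus not settled, and the main fits did not use one.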

Additional observations from a re-analysis of the deposited data

Results flagged for a closer look

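TPPF, WNK5, PP2C5 and AT5TE29800 passed a test of a difference between contrasts. For TPPF the ago59 minus ago9 log2 difference was higher in sperm than in vegetative nuclei by 8.42; it was at 9.33, 7.18 and 0 CPM in ago59 sperm and at 0 in all 3 ago9 sperm libraries, so the fitted size is no bound. For WNK5 the difference was -5.55, with 0.23, 0 and 0 CPM in ago59 sperm and 3.06, 6.11 and 0 CPM in ago9 sperm. In both genes the groups overlapped at 0. For PP2C5, a protein phosphatase, it was -1.15, with 3.57, 4.01 and 3.63 CPM in ago59 sperm below 6.22, 7.43 and 7.29 CPM in ago9 sperm. None of these 3 passed with RLE factors. For the row AT5TE29800 the change on AGO5 loss was higher without AGO9 than with it by 2.03 on the log2 scale. Its sperm means were 49.9 CPM in ago59, 22.4 in ago9, 50.7 in ago5 and 107 in the wild type.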

How the results depend on the processing

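The count in sperm was 713 with the replicate block (170 higher, 543 lower), 50 without vegetative-enriched features (174 of the 613 lay outside that class), 29 with library totals alone, and 103 to 785 with 1 library left out. The fit without vegetative-enriched features and the scalings by library totals or sperm-enriched features were chosen after seeing the data. Vegetative nuclei gave 98 calls without the low-count filter, 65 with DESeq2, 5 with the robust fit, 5 with only both groups and 1 to 3 with a library left out. The difference between sperm and vegetative nuclei gave 0 calls with RLE factors, 122 without the filter, 211 with DESeq2, 11 with the robust fit, 5 without organelle genes and 0 to 52 with a library left out. AGO5 loss without and with AGO9 gave 120 without the filter, 166 with DESeq2, 4 with the robust fit, 2 with the replicate block and 0 to 170 with a library left out. The vegetative-enriched share of lower calls, 90%, was 85.0% with an ago5 reference, 50.3% with a class limit of 2, 72.8% with RLE factors in both the genotype and the reference fit, 84.8% with factors from sperm-enriched features, 85.7% with library totals alone and 85.0% to 93.1% with a library left out. A class limit of 2 makes the class itself smaller. It leaves out the features with a wild-type log2 from -2 to -1, 1143 in number with 190 lower calls. The ago5 reference and RLE factors in the reference fit also redraw the classes. The background of 30.5% does not apply to these 3 shares. With RLE factors in the genotype fit alone, 419 of 463 lower calls were vegetative-enriched and 101 of 140 higher calls sperm-enriched. The sperm-enriched share of higher calls was 80% with RLE factors in both fits, 62.5% with library totals alone and 67.7% to 80.9% with a library left out. The difference in transposable element share, 0.0597 points, ranged from -1.07 (without ago59 replicate 3) to 0.786 and was -0.325 without ago9 replicate 2. Of 37 named calls, from the sperm comparison and the other tests, none changed direction. Of them, 8 stayed past the threshold in every alternative run in which they were tested. The fit without vegetative-enriched features could not test genes of that class. The causes were not tested. Sperm groups of 3 libraries limit all of these counts.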
